A study of Caenorhabditis elegans with 24 samples.

Results

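The values below are the RNA levels of 10 Argonaute genes of *C. elegans*: *prg-1*, *ergo-1*, *alg-3*, *alg-4*, *csr-1*, *wago-1*, *wago-4*, *hrde-1*, *ppw-1* and *sago-2*. They were taken from a table of 46926 genes by their names in the WBcel235 annotation, and all 10 were found, counted in every library and above the filter on low counts in every comparison. The study asked how worms that are exposed to low oxygen generation after generation adapt. It sequenced polyadenylated RNA of whole worms of the wild-type strain N2 and 24 libraries fall into 8 groups, each of 3 biological replicates. At each of 4 successive exposures, numbered 1 to 4, hypoxia worms at the L4 larval stage spent 16 hours in 0.1% oxygen, while normoxia worms of that generation stayed at normal oxygen. Worms of both conditions were frozen once these 16 hours had ended, so they were 16 hours older than at the start. Hypoxia worms of exposures 2 to 4 descend from worms that were themselves exposed. The worms carried no transgene or mutation, each library came from a pellet of many worms, and the pellets hold all tissues, so a level is an average over the germ line and the body.

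Argonaute proteins bind small RNAs and use them to find matching transcripts. In *C. elegans* primary Argonautes bind the first small RNAs of a pathway. Examples are the piRNAs bound by PRG-1 and the small RNAs bound by ERGO-1, ALG-3 and ALG-4. Secondary Argonautes bind the small RNAs that RNA-dependent RNA polymerases then copy from the target, and this second layer carries silencing through the germ line from parent to offspring. Most of the genes described here act in the germ line, some while sperm are made and others while oocytes are made.

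The libraries held between 26862487 and 46228496 reads counted on genes (median 33517710), and 22 ribosomal RNA genes took 0.431 to 17.5% of them. Within the groups no replicate is a copy of another, since the chi-square of counts was 5.52 to 416 per gene in the 24 replicate pairs. The defining markers of all tissues checked (sperm, oocyte, mitotic and meiotic germ line, intestine, body wall muscle, neuron and epidermis) were counted in every library, apart from *spe-27* and *msp-32*, which were at 0 in at least 1 library. The spread between replicates, as the biological coefficient of variation of edgeR, was 0.235 in exposure 1, 0.101 in exposure 2, 0.16 in exposure 3 and 0.128 in exposure 4, so a change of a given size is called less readily in exposure 1 than in exposure 2. In the hypoxia group of exposure 1, replicate 2 stood apart from replicates 1 and 3 in several of the genes described here, and results that rest on it are given with and without it. Normoxia replicate 1 of exposure 1 was also high for *hrde-1* (851 CPM, against 659 and 597) and *csr-1* (381 CPM, against 288 and 268). Strand and multiple-mapping settings of the read counting are not given in the sources used here. Reads of close relatives (*alg-3* and *alg-4*, *ppw-1* and *sago-2*) may therefore have been split between them.

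The 10 genes differed widely in level. Per kilobase of exon, averaged over the 4 exposures, *wago-1* stood highest at 181 CPM per kilobase in hypoxia and 207 in normoxia, CPM being counts scaled to a common library size. *hrde-1* followed at 178 CPM per kilobase in hypoxia and 196 in normoxia, and *prg-1* at 120 in hypoxia and 117 in normoxia. *csr-1* and *ergo-1* exchanged places between the conditions. *csr-1* was at 82.8 ± 12.7 CPM per kilobase in hypoxia and 74.2 ± 9.23 in normoxia (SD over 4 group means). *ergo-1* was at 70.4 ± 17.5 CPM per kilobase in hypoxia and 85.4 ± 4.42 in normoxia. Below them came *wago-4* (56.8 CPM per kilobase in hypoxia and 56.9 in normoxia), *ppw-1* (34.9 in hypoxia and 38.3 in normoxia) and *sago-2* (16.9 in hypoxia and 18.8 in normoxia). *alg-4* and *alg-3* were lowest, at 14.9 and 13.7 CPM per kilobase in hypoxia, against 4.92 and 4.52 in normoxia. Between *wago-1* and *hrde-1*, and between *alg-4* and *alg-3*, the difference was smaller than either gene's SD over the group means in both conditions. In hypoxia this also held between *csr-1* and *ergo-1*, and between *ergo-1* and *wago-4* (SD 15.4 for *wago-4*). *ergo-1* and *csr-1* in normoxia differed by more than either SD. The order was the same with the longest transcript as the length and with library totals as the scale.

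**Figure D1:**
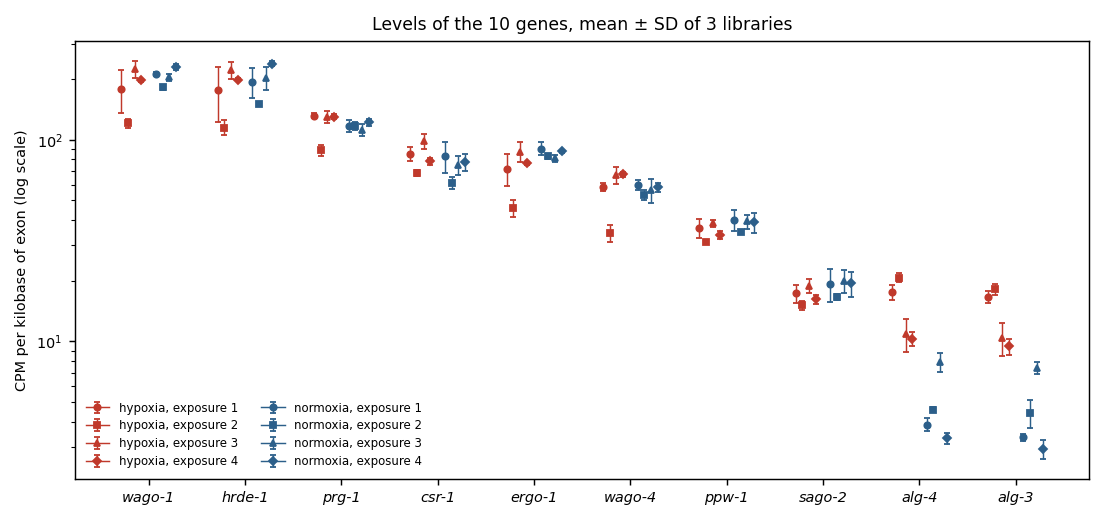
Level of each gene in CPM per kilobase of exon (log scale) in each of the 8 groups, as the mean of 3 libraries with bars of 1 SD, on 1 scale for all 24 libraries. Hypoxia stands left of normoxia for each gene, and only *alg-4* and *alg-3* have all 4 hypoxia groups above all 4 normoxia groups.

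More of these genes, and more of all genes, were called in exposures 2 and 4 than in exposures 1 and 3. In exposure 1, 2 of the 10 rose (*alg-3* and *alg-4*) and 0 fell, where 13.3% of all 13171 genes tested rose and 7.40% fell. In exposure 2, 3 rose (*csr-1*, *alg-3* and *alg-4*) and 5 fell (*prg-1*, *hrde-1*, *wago-1*, *wago-4* and *ergo-1*), where 37.2% of all 13820 genes tested rose and 36.3% fell. In exposure 3, 3 rose (*csr-1*, *alg-3* and *alg-4*) and 0 fell, where 12.4% of 12934 genes rose and 17.7% fell. In exposure 4, 3 rose (*wago-4*, *alg-3* and *alg-4*) and 5 fell (*hrde-1*, *wago-1*, *ppw-1*, *sago-2* and *ergo-1*), where 27.1% of 13448 genes rose and 23.0% fell. The counts of exposures 1, 3 and 4 rested in part on single libraries. Members called in exposure 1 numbered 4 without hypoxia replicate 2. In exposure 3 they numbered 0 without normoxia replicate 1, normoxia replicate 3 or hypoxia replicate 1, 1 without hypoxia replicate 2 and 5 without normoxia replicate 2. In exposure 4 they numbered 5 without normoxia replicate 3 or any 1 of the 3 hypoxia libraries, and in exposure 2 they stayed at 8. In exposures 1 to 3 the members called are near the share of all genes called, up and down together, so these counts are no result about the members. The count of exposure 4 lies above that share but fell to 5 without the single libraries named, for which no share of all genes is given here. DESeq2 gave the same counts of members in each direction in all 4 exposures, and at an unadjusted p under 0.05 edgeR also put 0 members down in exposures 1 and 3. The median log2 fold change of the 10 genes was -0.07, -0.17, 0.17 and -0.13 in exposures 1 to 4, beside -0.02, -0.01, 0.03 and 0 over all genes tested.

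**Figure D2:**
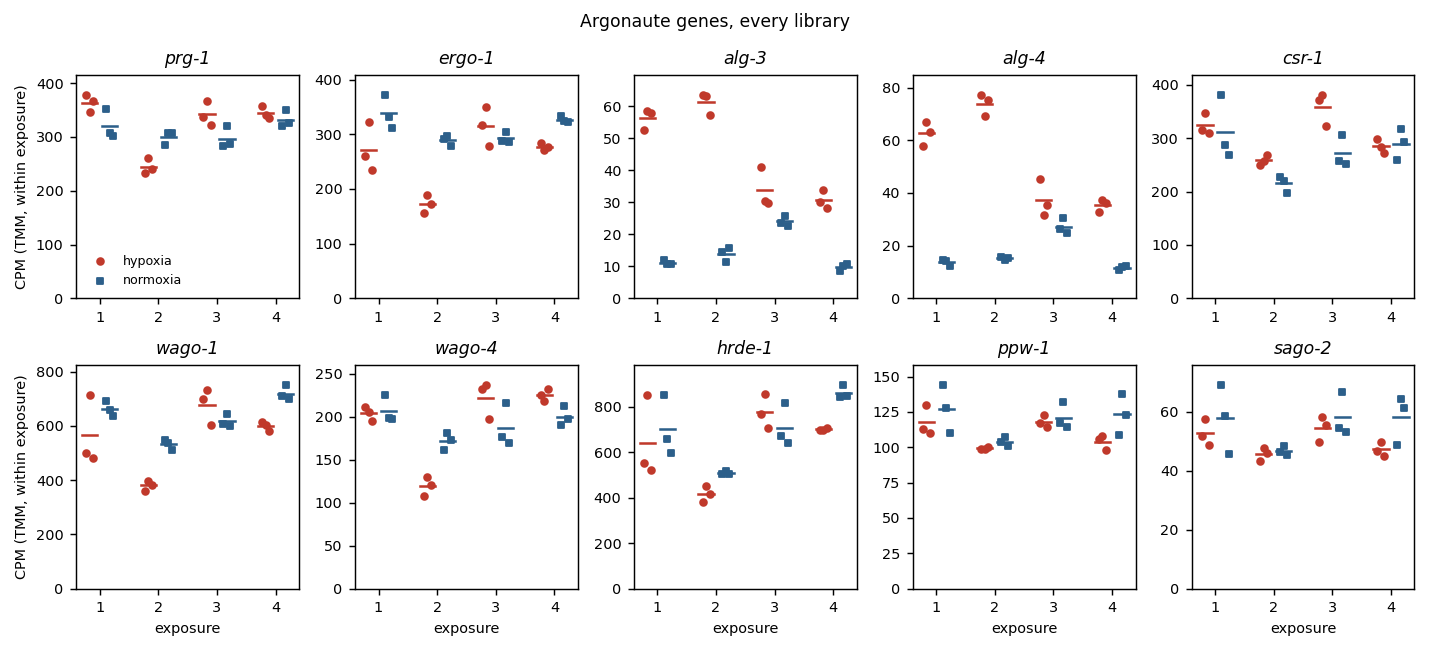
CPM of each gene in every library against the exposure, scaled within each exposure, with hypoxia (circles) left of normoxia (squares) and short lines at the means of 3. *alg-3* and *alg-4* have every hypoxia library above every normoxia library of the same exposure, and the 3 hypoxia libraries of exposure 2 are the lowest points of *wago-1*, *wago-4*, *ergo-1*, *prg-1* and *hrde-1*.

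*alg-3* (WBGene00011910) and *alg-4* (WBGene00006449) encode closely related primary Argonautes that act while sperm are made. *alg-3* lies on chromosome IV from 11704246 to 11708264 on the plus strand and *alg-4* on chromosome III from 9887209 to 9891424 on the minus strand (WBcel235). They were the members with the largest fold changes, and they rose in all 4 exposures. *alg-3* had 52.4, 58.6 and 58 CPM in the hypoxia libraries of exposure 1, against 11.9, 10.8 and 10.8 CPM in the normoxia libraries. In exposure 2 *alg-3* had 63.5, 63.3 and 57.1 CPM in hypoxia, against 14.4, 11.4 and 15.6 CPM in normoxia. The hypoxia libraries lay far above the normoxia libraries in both exposures, with log2 fold changes of 2.33 ± 0.1 (SE, adjusted p = 0.000582) and 2.15 ± 0.11 (adjusted p = 6.78e-08). In exposure 3 *alg-3* had 41.1, 30.5 and 29.7 CPM in hypoxia, against 23.6, 25.8 and 22.6 CPM in normoxia. In exposure 4 it had 30.2, 33.8 and 28.2 CPM in hypoxia, against 8.66, 10 and 10.7 CPM in normoxia. The groups still did not overlap, but the log2 fold change was 0.49 ± 0.14 in exposure 3 (adjusted p = 0.0311) and 1.65 ± 0.11 in exposure 4 (adjusted p = 2e-05).

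*alg-4* followed the same course. Its mean in exposure 1 was 62.6 ± 4.57 CPM in hypoxia and 13.7 ± 1.22 CPM in normoxia (SD, n = 3 each), a log2 fold change of 2.19 ± 0.11 (SE, adjusted p = 0.000582). In exposure 2 it had 77.2, 69.1 and 75.4 CPM in hypoxia, against 15.6, 14.7 and 15.2 CPM in normoxia, and the log2 fold change was 2.28 ± 0.07 (adjusted p = 2.98e-09). Every hypoxia library held over 4 times as much as any normoxia library there. In exposure 3 it had 45.2, 31.6 and 35.4 CPM in hypoxia, against 26.5, 30.4 and 24.7 CPM in normoxia, with a log2 fold change of 0.46 ± 0.15 (adjusted p = 0.0475). In exposure 4 it averaged 35.5 ± 2.52 CPM in hypoxia and 11.7 ± 0.738 CPM in normoxia, with a log2 fold change of 1.6 ± 0.09 (adjusted p = 9.59e-06). In exposures 1, 2 and 4 the calls of *alg-3* and *alg-4* held under all 14 alternatives. In exposure 3 the call of *alg-3* held under 8 of 14 and that of *alg-4* under 5 of 14. Both were lost with upper-quartile normalization and with library totals as the scale. The call of *alg-4* was also lost with at least 10 counts in every library, with the replicate block and without ribosomal RNA genes. Without normoxia replicate 1, normoxia replicate 3, hypoxia replicate 1 or hypoxia replicate 2, the log2 fold change of *alg-3* was between 0.33 and 0.55 and its adjusted p between 0.0509 and 0.0965. For *alg-4*, leaving out normoxia replicate 1 or 3 or hypoxia replicate 1 or 3 gave 0.3 to 0.46, with adjusted p between 0.0981 and 0.147.

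The small response of exposure 3 lay beside a high normoxia level. On 1 scale for all libraries, *alg-3* had 34.2 CPM in hypoxia and 24.2 CPM in normoxia in exposure 3. In the other exposures its means were 54.4, 59.6 and 30.9 CPM in hypoxia (exposures 1, 2 and 4), against 10.9, 14.4 and 9.6 CPM in normoxia. *alg-4* had 37.9 CPM in hypoxia and 27.5 CPM in normoxia in exposure 3, with 60.5, 71.8 and 35.7 CPM in hypoxia and 13.4, 15.9 and 11.5 CPM in normoxia in the others. The normoxia level of both genes differed among the 4 generations (adjusted p = 2.79e-07 for *alg-3* and 1.43e-07 for *alg-4*), as did the hypoxia level (adjusted p = 2.15e-06 and 3.09e-07 for the genes in the same order). Normoxia worms of exposure 3 thus held more *alg-3* and *alg-4* RNA than those of any other generation, and hypoxia worms held less in exposures 3 and 4 than in exposures 1 and 2.

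Genes known from sperm moved with *alg-3* and *alg-4*. Of a list of 37 sperm genes, such as *spe-11* and *gsp-3*, 27 of 30 tested rose in exposure 1, 31 of 32 in exposure 2, 3 of 31 in exposure 3 and 25 of 29 in exposure 4, with 0, 1, 0 and 1 that fell. The median log2 fold change of these sperm genes was 1.35, 1.23, 0.09 and 0.79 in exposures 1 to 4, smaller than that of *alg-3* and *alg-4* in every exposure. Of the genes of the major sperm protein, the main protein of the crawling worm sperm, 27 of 29, 29 of 29, 0 of 29 and 26 of 28 rose. At an unadjusted p under 0.05 (edgeR) 0 of them rose in exposure 3 as well, and 0 fell in any exposure. The summed level of the sperm list was 1100 to 1340 CPM in hypoxia and 540 to 549 CPM in normoxia in exposure 1. It was 1190 to 1260 CPM in hypoxia and 528 to 668 CPM in normoxia in exposure 2. In exposure 3 the normoxia libraries (1010 to 1130 CPM) lay within the range of the hypoxia libraries (994 to 1440 CPM), and in exposure 4 the sums were 733 to 772 CPM in hypoxia and 443 to 477 CPM in normoxia. The normoxia worms of exposure 3 were thus also high for sperm genes, with hypoxia replicate 1 highest in *alg-3*, *alg-4*, the sperm list and the major sperm proteins. In whole worms, fewer cells of a type and less RNA per cell cannot be told apart. The part of the number of sperm-forming cells in the change of *alg-3* and *alg-4* was not tested.

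**Figure D3:**
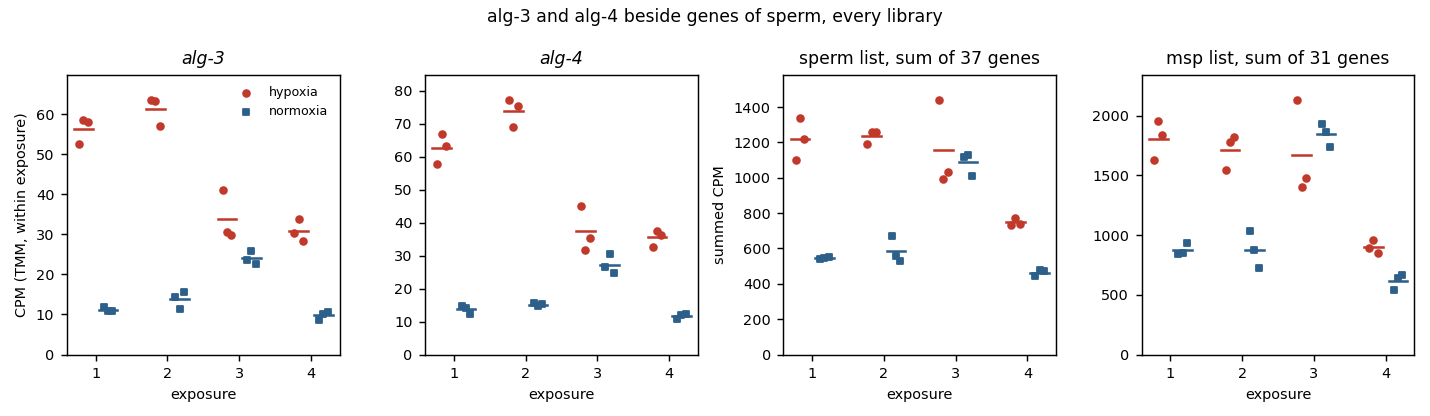
CPM of *alg-3* and *alg-4* and summed CPM of 37 sperm genes and 31 major sperm protein genes in every library, by exposure, with hypoxia (circles) left of normoxia (squares) and lines at the means of 3. In all 4 panels hypoxia lies above normoxia in exposures 1, 2 and 4, and in exposure 3 the normoxia libraries are the highest of the 4 normoxia groups.

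*ergo-1* (WBGene00019971, chromosome V from 1008803 to 1018352, plus strand) encodes the primary Argonaute of oocytes and embryos. It showed the largest fall of the 10 genes. In exposure 2 it had 156, 189 and 173 CPM in hypoxia, against 291, 297 and 279 CPM in normoxia. The hypoxia libraries all lay below the normoxia libraries, with a log2 fold change of -0.74 ± 0.07 (SE, adjusted p = 6e-06). In exposure 4 it had 284, 271 and 276 CPM in hypoxia, against 333, 324 and 322 CPM in normoxia, again without overlap, and the log2 fold change was -0.23 ± 0.05 (adjusted p = 0.00338). In exposure 1 the groups overlapped, at 260, 322 and 234 CPM in hypoxia and 372, 332 and 312 CPM in normoxia (log2 fold change -0.32 ± 0.14, adjusted p = 0.17). Without hypoxia replicate 2, the library at 322 CPM, the log2 fold change was -0.45 and passed (adjusted p = 0.0227), and it also passed in 1 fit of all 24 libraries (-0.33, adjusted p = 0.0124). Over all fits of exposure 1 without 1 library, the log2 fold change of *ergo-1* ran from -0.45 to -0.22, with adjusted p up to 0.446. In exposure 3 it averaged 315 ± 36.2 CPM in hypoxia and 292 ± 10.5 CPM in normoxia (SD, n = 3 each), with a log2 fold change of 0.11 ± 0.09 (SE, adjusted p = 0.416). Its exons share 17 bases with *pei-2* on the other strand.

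*prg-1* (WBGene00004178, chromosome I from 7585329 to 7588367, minus strand) encodes the PIWI protein that binds piRNAs and guards the germ line against foreign sequence. It fell in exposure 2 alone. There it had 232, 260 and 240 CPM in hypoxia, against 284, 307 and 307 CPM in normoxia, with no overlap and a log2 fold change of -0.3 ± 0.06 (SE, adjusted p = 0.00151). In exposure 1 it had 378, 347 and 366 CPM in hypoxia, against 351, 307 and 302 CPM in normoxia, so that 1 hypoxia library lay below the highest normoxia library (0.18 ± 0.1, adjusted p = 0.244). In exposure 3 every hypoxia library (336, 367 and 322 CPM) lay above every normoxia library (283, 320 and 286 CPM), but the difference of 0.2 ± 0.08 did not pass (adjusted p = 0.101). It passed without normoxia replicate 2 (0.26, adjusted p = 0.0411) and in 1 fit of all 24 libraries (0.2, adjusted p = 0.0253). In exposure 4 the log2 fold change was 0.05 ± 0.05 (adjusted p = 0.429).

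*csr-1* (WBGene00017641, chromosome IV from 7957267 to 7962157, plus strand) encodes an essential Argonaute that binds small RNAs against expressed germline genes and is thought to protect them from silencing. It rose in exposures 2 and 3. In exposure 2 it had 250, 258 and 268 CPM in hypoxia, against 228, 220 and 198 CPM in normoxia, a log2 fold change of 0.26 ± 0.06 (SE, adjusted p = 0.00368). In exposure 3 it had 372, 380 and 323 CPM in hypoxia, against 257, 305 and 252 CPM in normoxia, a log2 fold change of 0.4 ± 0.1 (adjusted p = 0.0202). Neither pair of groups overlapped. The call of exposure 3 was lost when normoxia replicate 1 or 3 or hypoxia replicate 1 or 2 was left out (0.35 to 0.37, adjusted p between 0.0697 and 0.0807), and that of exposure 2 in 1 fit of all 24 libraries (0.16, adjusted p = 0.191) and with library totals as the scale (0.13, adjusted p = 0.112). In exposure 1 the spread was wide, with 316, 348 and 310 CPM in hypoxia and 381, 288 and 268 CPM in normoxia (0.05 ± 0.15, adjusted p = 0.822). In exposure 4 hypoxia averaged 285 ± 13.3 CPM and normoxia 290 ± 29.2 CPM (SD, n = 3 each), a log2 fold change of -0.02 ± 0.08 (SE, adjusted p = 0.823). Exons of *csr-1* share 438 bases with *frpr-10* on the same strand, so reads of that stretch may have been counted on either gene or dropped.

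*wago-1* and *hrde-1*, the 2 members of highest level, fell in exposures 2 and 4. WAGO-1 acts in the germ granules of the cytoplasm, and HRDE-1 is the nuclear Argonaute through which silencing is inherited. *wago-1* (WBGene00011061, chromosome I from 7235384 to 7238792, plus strand) had 360, 397 and 383 CPM in hypoxia in exposure 2, against 548, 538 and 512 CPM in normoxia. Its highest hypoxia library lay below its lowest normoxia library, with a log2 fold change of -0.49 ± 0.06 (SE, adjusted p = 4.46e-05). In exposure 4 *wago-1* had 615, 602 and 582 CPM in hypoxia, against 709, 750 and 697 CPM in normoxia (-0.26 ± 0.06, adjusted p = 0.00771). In exposure 1 it had 501, 714 and 483 CPM in hypoxia, against 692, 657 and 637 CPM in normoxia, and replicate 2 alone overlapped the normoxia libraries. The log2 fold change there was -0.23 ± 0.17 (adjusted p = 0.383), and -0.43 without that library (adjusted p = 0.0172). Over all fits of exposure 1 without 1 library, the log2 fold change of *wago-1* ran from -0.43 to -0.12, with adjusted p up to 0.72. In exposure 3 it averaged 678 ± 66.9 CPM in hypoxia and 616 ± 22.7 CPM in normoxia (SD, n = 3 each; log2 fold change 0.14 ± 0.09 SE, adjusted p = 0.293).

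*hrde-1* (WBGene00007624, chromosome III from 4172337 to 4176159, minus strand) had 382, 451 and 418 CPM in hypoxia in exposure 2, against 503, 516 and 505 CPM in normoxia (log2 fold change -0.28 ± 0.07 SE, adjusted p = 0.00361). In exposure 4 it had 700, 696 and 709 CPM in hypoxia, against 844, 896 and 849 CPM in normoxia (-0.3 ± 0.06, adjusted p = 0.00403). Both falls were free of overlap. In exposure 1 hypoxia replicate 2 held 853 CPM, far from 551 and 523 CPM in replicates 1 and 3, while normoxia libraries had 851, 659 and 597 CPM. The log2 fold change there was -0.13 ± 0.23 (adjusted p = 0.72), the widest error of any member, and it did not pass without hypoxia replicate 2 either. Over all fits of exposure 1 without 1 library, it ran from -0.39 to 0.06. In exposure 3 *hrde-1* had 769, 855 and 705 CPM in hypoxia, against 670, 818 and 639 CPM in normoxia (0.13 ± 0.12, adjusted p = 0.44). The exposure 4 calls of *hrde-1*, *wago-1* and *ergo-1* were lost in 1 fit of all 24 libraries (adjusted p = 0.182 for *hrde-1*, 0.116 for *wago-1* and 0.134 for *ergo-1*) and with library totals as the scale (0.133 for *hrde-1*, 0.164 for *wago-1* and 0.146 for *ergo-1*), with the direction kept.

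*wago-4* (WBGene00010263, chromosome II from 12919551 to 12923377, plus strand), which encodes a cytoplasmic Argonaute needed for inherited RNA interference, was the only member called in both directions. In exposure 2 it had 108, 130 and 121 CPM in hypoxia, against 161, 181 and 173 CPM in normoxia, a log2 fold change of -0.52 ± 0.07 (SE, adjusted p = 9.61e-05). In exposure 4 it had 226, 219 and 232 CPM in hypoxia, against 190, 213 and 197 CPM in normoxia, a log2 fold change of 0.17 ± 0.06 (adjusted p = 0.0296). The fall was free of overlap by a wide margin and held under all 14 alternatives. The rise was small and was lost without normoxia replicate 3 or any 1 of the 3 hypoxia libraries (0.15 to 0.19, adjusted p between 0.0547 and 0.111), with no filter beyond 1 count (adjusted p = 0.0915), in 1 fit of all libraries (0.0715) and with library totals (0.515). In exposure 1 *wago-4* had 212, 206 and 195 CPM in hypoxia, against 225, 199 and 197 CPM in normoxia (-0.02 ± 0.09, adjusted p = 0.9). In exposure 3 hypoxia libraries had 233, 237 and 197 CPM and normoxia libraries 177, 216 and 169 CPM (0.25 ± 0.11, adjusted p = 0.137). This difference passed without normoxia replicate 2 (0.36, adjusted p = 0.0217) and in 1 fit of all 24 libraries (0.25, adjusted p = 0.0379).

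*ppw-1* (WBGene00004093, chromosome I from 4185174 to 4189956, plus strand) and *sago-2* (WBGene00018921, chromosome I from 618160 to 621490, plus strand) encode related secondary Argonautes of RNA interference. Both passed the test in exposure 4 alone, as falls, and for neither did the test of a difference among the exposures pass. *ppw-1* had 106, 108 and 97.9 CPM in hypoxia there, against 109, 138 and 123 CPM in normoxia, without overlap (log2 fold change -0.25 ± 0.09 SE, adjusted p = 0.0401). *sago-2* had 46.8, 49.9 and 45 CPM in hypoxia, against 48.9, 64.5 and 61.2 CPM in normoxia, with 1 hypoxia library above the lowest normoxia library (-0.3 ± 0.1, adjusted p = 0.0384). These calls were lost when normoxia replicate 2 or 3 or any hypoxia library of exposure 4 was left out, with log2 fold changes of -0.28 to -0.16 for *ppw-1* (adjusted p between 0.0713 and 0.137) and -0.34 to -0.22 for *sago-2* (adjusted p between 0.0607 and 0.123). In exposures 1 to 3 the log2 fold changes of *ppw-1* were -0.11, -0.07 and -0.04 and those of *sago-2* -0.13, -0.04 and -0.09, with adjusted p between 0.251 and 0.762. The means in those exposures were 118, 99.2 and 118 CPM in hypoxia and 127, 104 and 121 CPM in normoxia for *ppw-1*, and 52.7, 45.6 and 54.6 CPM in hypoxia and 57.8, 46.7 and 58.1 CPM in normoxia for *sago-2*.

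**Figure D4:**
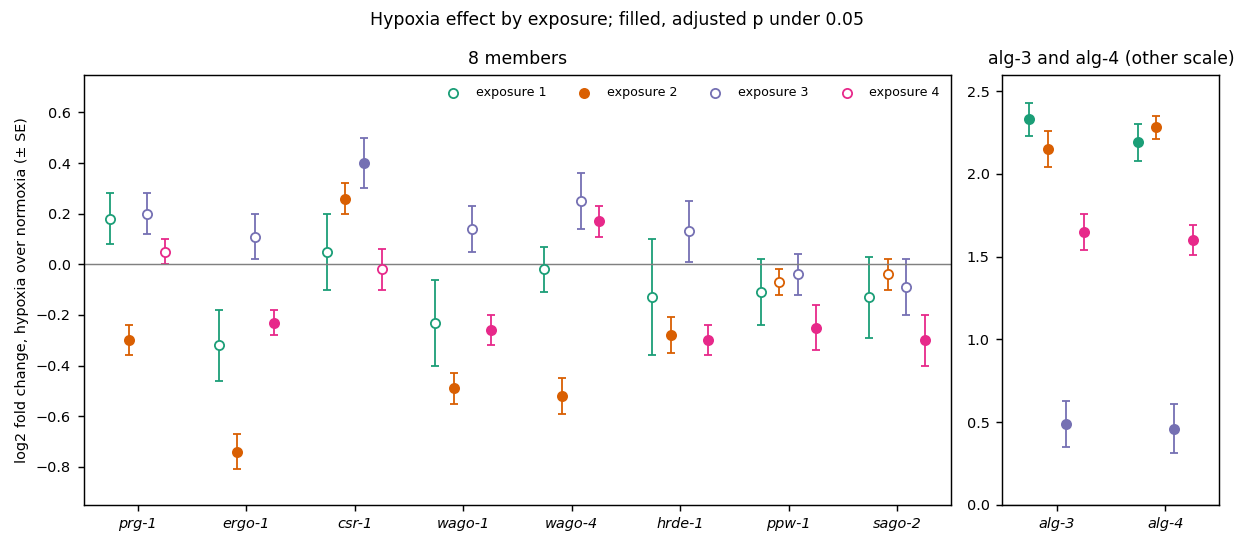
Log2 fold change of hypoxia over normoxia for each gene and exposure with bars of 1 SE, filled where the adjusted p is under 0.05, and with *alg-3* and *alg-4* on an axis of their own. Exposure 2 holds the lowest value of *ergo-1*, *wago-4*, *wago-1* and *prg-1*, and exposure 3 the lowest of *alg-3* and *alg-4*.

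The study looked for responses that are gained or lost as exposures repeat, so the effects were compared between exposures in 1 fit of all libraries. Each exposure number is also 1 generation with a harvest of its own. A difference between exposures therefore cannot be told apart from a difference between generations or harvests. The p-values rest on the spread among the 3 libraries of a group, pooled over all 8 groups into an estimate they share. Fitted alone, the exposures had coefficients of variation from 0.101 (exposure 2) to 0.235 (exposure 1), so the shared estimate need not match each exposure. The effect of hypoxia differed among the 4 exposures for 6 of the 10 genes, where it did for 68.2% of the 12517 genes tested. These were *prg-1* (adjusted p = 9.03e-05), *wago-1* (0.00416), *wago-4* (4.06e-05), *alg-3* (7.72e-07), *alg-4* (1.7e-07) and *ergo-1* (0.000136), and all 6 held under every one of 30 alternatives. It did not pass for *csr-1* (0.0986), *hrde-1* (0.154), *ppw-1* (0.587) or *sago-2* (0.798). Between exposures 2 and 1, the effect was lower in exposure 2 for 3 genes, where 21.4% of all genes had a lower and 13.4% a higher effect. The log2 difference was -0.57 ± 0.1 for *prg-1* (SE, adjusted p = 0.000259), -0.59 ± 0.13 for *wago-4* (adjusted p = 0.00178) and -0.52 ± 0.14 for *ergo-1* (adjusted p = 0.00902). For *ergo-1* it was -0.29 without hypoxia replicate 2 of exposure 1 (adjusted p = 0.0553) and -0.42 with no filter beyond 1 count (adjusted p = 0.059). The effects of *alg-3* and *alg-4* differed by -0.27 ± 0.18 and 0 ± 0.16 between these exposures (adjusted p = 0.243 and 0.994).

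Between exposure 4 and the mean of exposures 1 to 3, *wago-4* alone differed, with a log2 difference of 0.35 ± 0.11 (SE, adjusted p = 0.0233), where 15.1% of all genes had a higher and 4.57% a lower effect in exposure 4. The call was lost without hypoxia replicate 2 of exposure 1, hypoxia replicate 1 or 3 of exposure 2, hypoxia replicate 3 of exposure 3, any normoxia library of exposure 4, or hypoxia replicate 1 or 3 of exposure 4 (0.23 to 0.35, adjusted p between 0.0589 and 0.12), and also with no filter beyond 1 count (0.24, 0.18), without ribosomal RNA genes (0.29, 0.0562) and with library totals (0.29, 0.132). *alg-3* and *alg-4*, the members called in exposure 1, were also called up in each later exposure, so neither is a response that was present at first and absent in exposure 2 or 4. Their effects in exposure 4 differed from the mean of the earlier ones by 0.07 ± 0.15 and 0.03 ± 0.13 (adjusted p = 0.789 and 0.887). That mean includes the small effects of exposure 3 (0.49 and 0.46). In exposure 4 the effect was 1.65 for *alg-3*, below 2.33 and 2.15 in exposures 1 and 2. For *alg-4* it was 1.6, below 2.19 and 2.28. These differences from exposures 1 and 2 alone were not tested.

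More members, and more of all genes, differed in level among the exposures in hypoxia than in normoxia worms, though the difference between these counts was not tested. In both conditions the count of members is near the share of all genes, so these counts are no result about the members. In normoxia the level differed among the 4 generations for 4 of the 10 genes, where it did for 54% of all genes: *csr-1* (adjusted p = 0.0125), *hrde-1* (0.0083), *alg-3* and *alg-4*. On 1 scale, *hrde-1* had 686, 531, 717 and 845 CPM in normoxia of exposures 1 to 4, and *csr-1* had 305, 225, 275 and 284 CPM. Normoxia worms of exposure 2 were thus the lowest for both genes, and for *csr-1* the call was lost without normoxia replicate 3 of exposure 2 (adjusted p = 0.0778). *wago-1* did not pass (0.076), but did so under 11 of 29 alternatives. In hypoxia the level differed among the exposures for 9 of the 10, where it did for 78.5% of all genes, *sago-2* being the exception (adjusted p = 0.114). For 8 of the 9 the p was at most 0.00162, and for *ppw-1* it was 0.0203, which was lost without any of 6 single libraries (hypoxia replicate 2 of exposure 1, replicates 1 and 3 of exposure 2, replicates 2 and 3 of exposure 3, and normoxia replicate 2 of exposure 4; 0.0559 to 0.129). It was also lost with upper-quartile normalization (0.202), with no filter beyond 1 count (0.0612) and without ribosomal RNA genes (0.0571). Hypoxia worms of exposure 2 had the lowest hypoxia mean for 8 of the 10 genes, for example 369 CPM of *wago-1*, against 548, 686 and 603 CPM in exposures 1, 3 and 4. For *alg-3* and *alg-4* exposure 2 was the highest.

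Averaged over the 4 exposures, 3 genes were higher and 4 lower in hypoxia, where 31.3% of all genes were higher and 39.4% lower. *alg-3* was higher by a log2 mean of 1.63 ± 0.06 (SE, adjusted p = 6.44e-14), *alg-4* by 1.61 ± 0.06 (1.72e-14) and *csr-1* by 0.15 ± 0.05 (0.0151). *ergo-1* was lower, at -0.32 ± 0.05 (1.61e-05), as were *wago-1* at -0.23 ± 0.05 (0.000994), *ppw-1* at -0.14 ± 0.04 (0.0111) and *sago-2* at -0.16 ± 0.06 (0.0254). *prg-1*, *wago-4* and *hrde-1* did not pass, at 0.02 ± 0.03, -0.05 ± 0.05 and -0.16 ± 0.08. *hrde-1* (adjusted p = 0.0582) passed under 8 of 30 alternatives, among them DESeq2 (-0.17, adjusted p = 0.0414), library totals (-0.2, 0.0248) and the fit without hypoxia replicate 2 of exposure 1 (-0.23, 0.000909). The call of *csr-1* was lost with library totals (0.12, adjusted p = 0.0702), and that of *sago-2* without normoxia replicate 1 of exposure 1, hypoxia replicate 1 or 3 of exposure 2, normoxia replicate 2 of exposure 3 or hypoxia replicate 1 of exposure 4 (-0.15 to -0.13, adjusted p between 0.053 and 0.0687) and with no filter beyond 1 count (-0.15, adjusted p = 0.0594).

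Genes of the oocyte and of the rest of the germ line moved beside the members that fell. Of 20 oocyte genes, such as *oma-1* and *rme-2*, 0 rose and 2 fell in exposure 1, 0 rose and 20 fell in exposure 2, 2 rose and 2 fell in exposure 3, and 0 rose and 16 fell in exposure 4. At an unadjusted p under 0.05 (edgeR) 0 oocyte genes rose in exposures 1, 2 and 4, and 7, 20 and 18 fell. Of 17 genes of the mitotic and meiotic germ line, 1, 1, 2 and 2 rose and 1, 12, 0 and 8 fell in exposures 1 to 4. The summed level of the oocyte list was 5530 to 7090 CPM in hypoxia and 10200 to 11000 CPM in normoxia in exposure 2. In exposure 4 it was 12200 to 12400 CPM in hypoxia and 14800 to 16000 CPM in normoxia, and in exposure 3 the ranges overlapped, at 12200 to 14700 CPM in hypoxia and 12100 to 13200 CPM in normoxia. The falls of *ergo-1*, *wago-1* and *hrde-1* thus came in exposures 2 and 4, in which most of the oocyte genes fell. The other members did not fall in both. In exposure 2 *csr-1* rose (log2 fold change 0.26), and *ppw-1* and *sago-2* were not called (-0.07 and -0.04). In exposure 4 *wago-4* rose (0.17), and *prg-1* and *csr-1* were not called (0.05 and -0.02). *alg-3* and *alg-4* rose in both exposures. In exposure 1 the oocyte sum was 9180, 13300 and 8560 CPM in hypoxia, so replicate 2, which was high for *hrde-1*, *wago-1* and *ergo-1*, was also high for oocyte genes, and the normoxia libraries had 15300, 13400 and 12100 CPM. Of 6 body wall muscle genes, 5 rose and 1 fell in exposure 2, with a summed level of 7710 to 7850 CPM in hypoxia and 3120 to 3770 CPM in normoxia, while in exposure 4 they were at 2500 to 2980 CPM in hypoxia and 2870 to 2910 CPM in normoxia. Of 7 intestine genes, 5 rose and 2 fell in exposure 2, with a summed level of 7650 to 7740 CPM in hypoxia and 4590 to 5940 CPM in normoxia, and of 7 epidermis genes 3 rose and 4 fell, at 1630 to 1870 CPM in hypoxia and 1180 to 1390 CPM in normoxia. The part of the share of germline RNA in these falls was not tested.

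**Figure D5:**
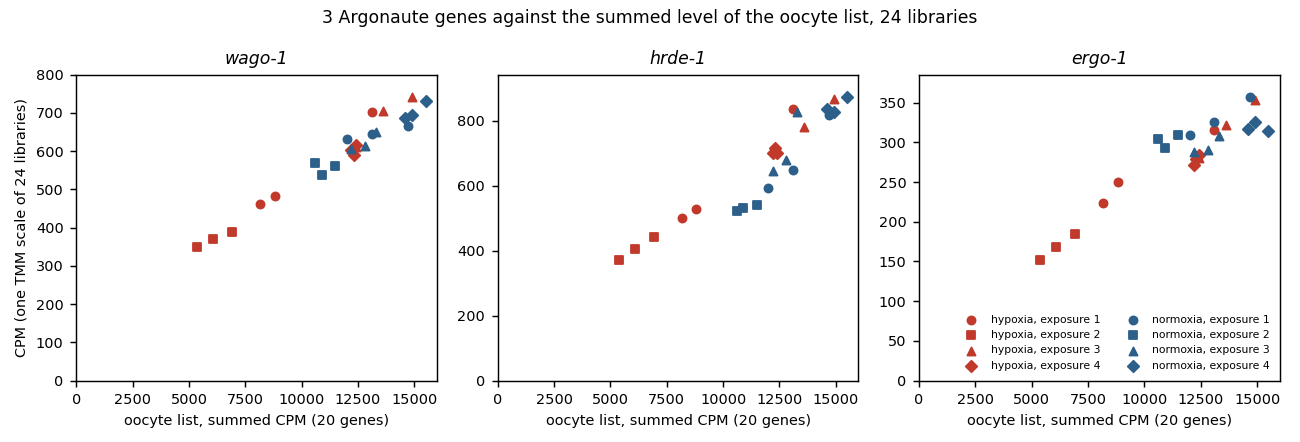
CPM of *wago-1*, *hrde-1* and *ergo-1* against the summed CPM of 20 oocyte genes in the 24 libraries, on 1 scale for all libraries, with hypoxia in red and normoxia in blue and a marker for each exposure. Hypoxia libraries of exposure 2 lie lowest on both axes, and hypoxia replicate 2 of exposure 1 lies among the normoxia libraries.

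As a description of likeness, Pearson's r of log2 CPM was taken over the 24 libraries, which form 8 groups of 3, so that the points are not independent. Libraries may also share differences in tissue makeup, which were not tested. Against the log2 summed level of the oocyte list, r was 0.99 for *wago-1*, 0.96 for *ergo-1*, 0.94 for *hrde-1*, 0.84 for *wago-4*, 0.75 for *ppw-1*, 0.7 for *prg-1* and 0.68 for *sago-2*. The list of the mitotic and meiotic germ line gave 0.98 for *wago-1*, 0.95 for *ergo-1*, 0.94 for *hrde-1*, 0.88 for *wago-4*, 0.78 for *ppw-1*, 0.76 for *prg-1* and 0.7 for *sago-2*, so the likeness is not particular to oocyte genes. Against the sperm list it was 0.9 for both *alg-3* and *alg-4*. *csr-1* was closest to the germ granule list (0.85), of whose 10 genes 2 rose and 7 fell in exposure 2, 5 rose in exposure 3, and 1 rose and 5 fell in exposure 4, and lay at 0.44 with the oocyte list and 0.26 with the sperm list. Among the members, *alg-3* and *alg-4* were most alike (0.99), followed by *wago-1* and *ergo-1* (0.95), *ppw-1* and *sago-2* (0.95), *hrde-1* and *wago-1* (0.94) and *prg-1* and *wago-4* (0.93). *alg-4* and *ergo-1* were the least alike (-0.7).

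The 3 genes nearest to each member were sought among the 12516 other genes that pass the filter in all exposures. For *wago-1* they were the replication helicase genes *mcm-3* (0.991) and *mcm-6* (0.99) and *rif-1.1* (0.989). For *ergo-1* they were *ani-1*, an anillin (0.986), *drsh-1*, the nuclease that starts microRNA processing (0.986), and *dsh-2*, a Dishevelled protein (0.983). For *hrde-1* they were *cbd-1* of the eggshell (0.979), *ani-2* (0.978) and WBGene00014667 (0.977). *cbd-1* is itself one of the oocyte genes listed. For *alg-3* they were *alg-4* (0.993), the lectin gene *clec-119* (0.992) and *acs-10* (0.988), and for *alg-4* they were *alg-3*, *clec-119* (0.991) and *C02B10.6* (0.991). For *prg-1* they were *wago-4* (0.931), *C28A5.2* (0.924) and the cohesin gene *rec-8* (0.905), and for *wago-4* they were WBGene00004246 (0.96), *maph-1.2* (0.948) and *egg-4* (0.943). *ppw-1* and *sago-2* were each other's nearest gene (0.945). Next came *zyg-12* (0.886) and *aspm-1* (0.879) for *ppw-1*, and WBGene00018862 (0.857) and *ttc-1* (0.852) for *sago-2*. The nearest gene of *csr-1* was the least close of the 10, and its 3 were WBGene00014576 (0.884), *asb-1*, an ATP synthase subunit (0.88), and *D2005.4* (0.875).

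Of 10 other Argonaute genes in the table, 9 were tested, *wago-5* being below the filter on low counts. In exposure 1 *wago-10* and *ppw-2* rose and *alg-2* and *nrde-3* fell. In exposure 2 *wago-10* rose and 6 fell, in exposure 3 *ppw-2* rose and *sago-1* fell, and in exposure 4 *wago-10*, *ppw-2*, *sago-1* and *alg-1* rose and *alg-2*, *nrde-3*, *alg-5* and *vsra-1* fell. Those other than *wago-10* and *ppw-2* are named after their values were seen. Of all genes tested, 13.3, 37.2, 12.4 and 27.1% rose in exposures 1 to 4, and 7.40, 36.3, 17.7 and 23.0% fell. No test compared the other Argonaute genes with all genes. Of the 4 other Argonaute genes called in exposure 1, 2 were called without normoxia replicate 2 or 3, and of the 2 in exposure 3, 1 without normoxia replicate 1 or 3 or hypoxia replicate 1. *wago-10*, an Argonaute of the secondary class, was close to *alg-3* in its course. It had 26.3, 24.6 and 30.9 CPM in hypoxia in exposure 1, against 6.05, 5.12 and 4.95 CPM in normoxia, and 46, 46 and 45.7 CPM in hypoxia in exposure 2, against 5.56, 4.21 and 6.19 CPM in normoxia. Its log2 fold changes were 2.34 ± 0.16, 3.1 ± 0.12, 0.56 ± 0.19 and 1.74 ± 0.12 in exposures 1 to 4 (SE, adjusted p = 0.000582, 1.35e-08, 0.0578 and 2.31e-05), so that, like *alg-3* and *alg-4*, it moved least in exposure 3. *ppw-2*, also known as *wago-3*, had 199, 198 and 203 CPM in hypoxia in exposure 1, against 133, 95.4 and 97.6 CPM in normoxia (log2 fold change 0.88 ± 0.14, adjusted p = 0.00604). It rose by 0.63 ± 0.16 in exposure 3 and 0.54 ± 0.11 in exposure 4 (adjusted p = 0.0205 and 0.0043), with 0.1 ± 0.05 in exposure 2 (adjusted p = 0.134).

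Of 44 genes that make or relay small RNAs, all tested, 2 rose and 2 fell in exposure 1, 4 rose and 26 fell in exposure 2, 6 rose and 0 fell in exposure 3, and 4 rose and 20 fell in exposure 4. DESeq2 called 7 up and 0 down in exposure 3, and 0 fell there at an unadjusted p under 0.05. The median log2 fold change of the 44 was -0.09, -0.29, 0.12 and -0.14. The shares of all genes that rose and fell are those given above for the members, and no test compared this list with the members. In exposure 2, 7 of 14 genes of the RNA-dependent RNA polymerases and the Dicer complex fell, as did 8 of 12 of the mutator complex, which amplifies secondary small RNAs, 7 of 11 of piRNA biogenesis and 4 of 7 of nuclear RNA interference. In exposure 4 the counts that fell were 3 of 14, 7 of 12, 6 of 11 and 4 of 7 for the groups in the same order. *rrf-2*, an RNA-dependent RNA polymerase, and *nrde-2*, a factor of nuclear RNA interference, rose in all 4 exposures. *rrf-2* had 18.8, 17.7 and 20.8 CPM in hypoxia of exposure 1, against 7.12, 9.44 and 11.4 CPM in normoxia, and its log2 fold changes were 1.04, 0.72, 0.55 and 0.82 in exposures 1 to 4 (adjusted p between 0.000715 and 0.0221). *nrde-2* had 164, 155 and 154 CPM in hypoxia of exposure 1, against 120, 113 and 115 CPM in normoxia, and its log2 fold changes of 0.44, 0.41, 0.44 and 0.39 were nearly even over the exposures (adjusted p between 3.02e-05 and 0.00907).

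Of the other partner genes named by rule, 5 fell in at least 1 exposure and *eri-6* rose. *hpl-2*, a heterochromatin protein, fell in exposures 1, 2 and 4 (log2 fold changes -0.52, -0.4 and -0.33), as did *pid-3* of piRNA processing (-0.36, -0.28 and -0.32). *mut-2* (-0.31, -0.72, -0.15 and -0.3) and *rde-10* (-0.31, -0.59, -0.19 and -0.39), both of the mutator group, fell in exposures 2 and 4, and *ife-3* (-0.34, -0.02, 0.18 and -0.38) in exposure 4 alone. *eri-6*, a helicase of the pathway that makes the small RNAs of ERGO-1, rose in exposures 2 and 4 (0.36, 0.62, 0.01 and 0.34). In exposure 1 the partner counts rested on single libraries. Leaving out hypoxia replicate 2 gave 3 that rose and 10 that fell in place of 2 and 2, and leaving out normoxia replicate 2 gave 1 and 0. The total was 2 without normoxia replicate 3 or hypoxia replicate 3. In exposure 3 the total of 6 became 1 without normoxia replicate 1 or hypoxia replicate 1 and 2 without normoxia replicate 3 or hypoxia replicate 2, and in exposure 4 the total of 24 became 15 without hypoxia replicate 3.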

How the data were processed

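Reads were processed by the authors, who enriched mRNA on poly(A) beads, made directional libraries, kept reads of high quality, trimmed adapters with cutadapt 4.0, aligned reads to WS235 with bowtie2 and counted them per gene with FeatureCounts. The deposited table holds whole-number counts of 46926 genes without normalization, and all 24 columns were used. The deposited tables of the authors' own DESeq2 comparisons hold fold changes and p-values and were not used.

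Hypoxia was tested against normoxia within each exposure in R 4.3.3 with edgeR 4.0.16 (quasi-likelihood test, TMM) on genes with at least 350 counts over the 6 libraries, with a call wherever the p adjusted over all genes tested (Benjamini-Hochberg) lay under 0.05. One fit of all 24 libraries (common biological coefficient of variation 0.158) compared effects and levels among exposures, on the 12517 genes that pass in all 4. SEs are the log2 fold change divided by the square root of F. CPM are on the TMM scale of the exposure's own 6 libraries, except levels per kilobase and those said to be on 1 scale. Log2 fold changes on an exposure's own scale minus those on the common scale are 0.02, 0.1, 0 and -0.04 in exposures 1 to 4. The exact test of 3 libraries against 3 cannot go below p = 0.1, so single genes were not tested alone.

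Members, lists and tests were chosen with earlier results of these data known. Besides the 10 members, genes named are the 2 of each list of other Argonautes and partners with the largest absolute log2 fold change in exposure 1, those called one way in all 4 exposures, and the 3 nearest genes by Pearson's r of log2 CPM (prior count 2). Alternatives were DESeq2 1.42.0 (missing adjusted p left out), upper-quartile normalization, other filters on low counts, 1 fit of all libraries, a block for the replicate number, and fits without each library in turn. Fits without the ribosomal RNA genes and with library totals were added after seeing the data. Names, coordinates and exon lengths come from the WBcel235 annotation of Ensembl, the same assembly as WS235. The scripts were tested on simulated data.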

Additional observations from a re-analysis of the deposited data

Results flagged for a closer look

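The results below are those in which the effect of hypoxia differed between exposures by a test of the difference itself, in edgeR's fit of all 24 libraries. In them the exposure number cannot be told apart from the generation or harvest. The effect differed among the 4 exposures for *prg-1* (adjusted p = 9.03e-05), *wago-1* (0.00416), *wago-4* (4.06e-05), *alg-3* (7.72e-07), *alg-4* (1.7e-07) and *ergo-1* (0.000136). Between exposures 2 and 1 the log2 difference was -0.57 for *prg-1* (adjusted p = 0.000259), -0.59 for *wago-4* (0.00178) and -0.52 for *ergo-1* (0.00902), which was not called without hypoxia replicate 2 of exposure 1 (-0.29, 0.0553) or with no filter beyond 1 count (-0.42, 0.059). Between exposure 4 and exposures 1 to 3 it was 0.35 for *wago-4* (0.0233), a call lost under 12 of 30 alternatives.

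On 1 scale, the normoxia mean of *alg-3* was 24.2 CPM in exposure 3 and 9.6 to 14.4 CPM in the other generations. The hypoxia mean of *prg-1* was 237 CPM in exposure 2 and 346 to 351 CPM in the other exposures, and that of *wago-4* was 116 CPM in exposure 2 and 197 to 227 CPM in the others. The test of normoxia levels among the generations did not pass for *prg-1* (adjusted p = 0.502) or *wago-4* (0.374).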

How the results depend on the processing

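Of 2340 values of single members under alternatives, over 100 results, 2223 kept their call, 82 lost it, 35 gained one and 0 called values changed direction. With 3 libraries a group and no depth limit on these genes (lowest count 310), the spread between replicates limits the precision. Library totals moved the median of all genes in exposure 2 to -0.15 (-0.01 with TMM), and changes are relative to it. Members called in exposure 3 numbered 1 with upper-quartile normalization (3 in the main test), 5 in 1 fit of all 24 libraries and 0 with library totals, where 25.4% of all called genes rose in place of 41.2%. Members called in exposure 4 numbered 2 in 1 fit of all libraries and 2 with library totals (8 in the main test). Fewer of all genes were called there too, with 3112 up and 1585 down in 1 fit, which tested 12517 genes in place of 13448. With library totals 2794 were called up and 1719 down, and in the main test 3644 up and 3097 down. Other Argonautes called were 4 in exposure 3 with upper-quartile normalization and 4 with library totals (2 in the main test), and 5 in exposure 4 in 1 fit and 4 with library totals (8). Partner genes called were 13 in exposure 1 in 1 fit (4), 2, 11 and 3 in exposure 3 with upper-quartile normalization, 1 fit and library totals (6), and 13 and 8 in exposure 4 in 1 fit and with library totals (24). In exposure 1 the 1 fit called 2745 of all genes up and 2836 down, against 1752 and 975 in the main test. The difference of *wago-4* between exposure 4 and exposures 1 to 3 was not called without a filter beyond 1 count, without ribosomal RNA genes or with library totals (0 members in each). The causes were not tested.

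With 1 library left out, members called were 2 to 4 in exposure 1, 8 to 8 in exposure 2, 0 to 5 in exposure 3 and 5 to 8 in exposure 4. Other Argonautes called were 2 to 5, 7 to 7, 1 to 3 and 7 to 8, and partner genes 1 to 13, 27 to 30, 1 to 8 and 15 to 22. Members whose effect differed were 6 to 7 among exposures, 2 to 4 between exposures 2 and 1 and 0 to 1 between exposure 4 and the rest. Members whose level differed were 3 to 5 in normoxia and 8 to 9 in hypoxia, and 6 to 8 had a mean effect.

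Replicate numbers are not stated to pair libraries. Deviations of same-numbered libraries correlated between -0.31 and 0.3, and those of other pairs between -0.38 and 0.36. In exposures 3 and 4 the same-numbered values were all positive (0.03 to 0.15), with other pairs between -0.13 and 0.09. With 3 replicates a group, these values cannot decide whether libraries are paired. With the replicate number as a block, partner genes called in exposure 1 were 1, members called in exposures 1 to 4 were 2, 8, 2 and 8, and *alg-4* in exposure 3 had an adjusted p of 0.0675 and the mean effect of *hrde-1* was -0.17 (adjusted p = 0.043). Levels within 1 condition could not be fitted with the block nested in exposure. The level of *ppw-1* in normoxia was 40.6 CPM per kilobase with the longest transcript as its length.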
